A study of Mus musculus with 24 samples.

Results

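The 9 genes described here mark or specify microglia, the resident macrophages of the brain: Tmem119, Trem2, Tyrobp, Gpr34, Mertk, Sall1, Spi1, Aif1 and Itgam. They were chosen by symbol, with earlier results of these data known, and all 9 were found among the 54838 gene identifiers of the count table. Of the 13116 genes with enough reads to be tested, 7 were among the 9; Gpr34 and Sall1 held too few reads.

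The RNA came from SIM-A9, an established line of mouse microglia, and each of the 8 groups had 3 libraries of poly-A RNA. Cells of every group were moved to serum-free medium 2 h before the experiment and harvested after a further 2 h. The groups were untreated control, LPS (bacterial lipopolysaccharide, the positive control for inflammation), (GT)6 SWCNT and carboxylated (COOH) SWCNT, which are single-walled carbon nanotubes used as sensor platforms, AAV (adeno-associated virus, used for gene delivery), the calcium indicator Fura-2, and DiBASC2 with Di-2-ANEPEQ, both voltage-sensitive dyes. DiBASC2 is the spelling of the sample titles, while the treatment field ends the name in a number that changes between its libraries and the count table spells it DiSBAC2. Di-2-ANEPEQ follows the count table, and the titles spell it Di2ANEQPEQ. The labels give no dose, AAV serotype or cargo, and do not say what was added to control wells. The comparisons ask how far a probe alters the microglia it is meant to sit beside, with LPS as the reference for an inflammatory response.

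Microglia are specified by layered transcription factors. PU.1, the product of Spi1, is needed for the whole myeloid lineage, and the zinc-finger factor SALL1 separates microglia from other macrophages. TMEM119 and the receptor GPR34 are surface proteins of the homeostatic state, which depends on signals from brain tissue and is readily lost in culture. TREM2 is a lipid-sensing receptor that signals through the adaptor TYROBP (DAP12), MERTK is a receptor tyrosine kinase for the engulfment of apoptotic cells, AIF1 (IBA1) is an actin-binding protein used as a histological stain, and ITGAM (CD11b) pairs with ITGB2 to form complement receptor 3.

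The libraries held 17364272 to 29259221 counts, and the biological coefficient of variation across tested genes was 4.12%. Replicate pairs differed beyond sampling noise (chi-square over genes of 2.43 to 18.9 per degree of freedom). Nothing in the labels says that replicates were separate cultures, so p-values measure only the spread between these libraries, which may be technical. The S numbers that end the column names run in blocks of 3 per group, and their meaning is not stated. Any order they stand for cannot be told apart from group. All treatments share the same 3 control libraries. In bulk RNA, fewer cells of a type and less RNA per cell cannot be told apart.

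In GENCODE M21 on GRCm38 all 9 are protein-coding genes. Spi1 lies at chr2:91082390-91115756 on the plus strand and Sall1 at chr8:89027235-89044162 on the minus strand. Trem2 (chr17:48346401-48354147, plus) and Aif1 (chr17:35170991-35176068, minus) share a chromosome. Tyrobp (chr7:30413760-30417585, plus) and Itgam (chr7:128062640-128118491, plus) share another. Tmem119 is at chr5:113793729-113800516 on the minus strand, Gpr34 at chrX:13632089-13640858 on the plus strand and Mertk at chr2:128698956-128802894 on the plus strand. Of the 5024 exon bases of Itgam, 3450 are shared on the same strand with the annotated gene Gm49368. Gm49368 held 0 to 4 counts in any library while Itgam held 797 to 1475, and since the handling of shared reads is not given in the sources used here, the level of Itgam is uncertain. The other 8 share no exon position with another gene.

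Spi1 was the member with the smallest adjusted p after LPS, so the promoters of the others are shown with the core of the PU.1 recognition site, GAGGAA. The windows are RefSeq sequences on GRCm38.p6 of 300 bases, from 250 before to 50 after the start of the gene, read 5′ to 3′ along the gene; capitals mark GAGGAA or its reverse complement TTCCTC. Trem2 is shown as the gene called in the most treatments, Itgam and Aif1 as myeloid markers, and Sall1 as the member without reads in control. Their windows are chr17:48346151-48346450 (plus), chr7:128062390-128062689 (plus), chr17:35176003-35176302 (minus) and, for the first of its 3 RefSeq starts, chr8:89044113-89044412 (minus).
Trem2: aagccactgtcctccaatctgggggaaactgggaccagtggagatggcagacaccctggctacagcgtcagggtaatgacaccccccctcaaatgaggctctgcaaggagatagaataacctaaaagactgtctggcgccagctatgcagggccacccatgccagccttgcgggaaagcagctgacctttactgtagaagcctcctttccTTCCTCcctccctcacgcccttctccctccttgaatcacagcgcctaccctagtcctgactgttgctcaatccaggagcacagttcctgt
Itgam: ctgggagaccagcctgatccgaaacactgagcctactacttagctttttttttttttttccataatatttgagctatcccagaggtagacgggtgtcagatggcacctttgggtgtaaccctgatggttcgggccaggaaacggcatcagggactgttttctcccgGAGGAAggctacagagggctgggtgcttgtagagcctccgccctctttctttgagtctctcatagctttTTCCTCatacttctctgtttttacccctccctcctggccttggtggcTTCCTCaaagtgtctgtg
Aif1: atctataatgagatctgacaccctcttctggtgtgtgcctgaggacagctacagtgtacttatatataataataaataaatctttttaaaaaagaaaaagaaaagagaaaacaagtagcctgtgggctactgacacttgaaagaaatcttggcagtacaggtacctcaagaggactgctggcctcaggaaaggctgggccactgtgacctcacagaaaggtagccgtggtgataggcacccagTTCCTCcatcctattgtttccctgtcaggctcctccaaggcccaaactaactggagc
Sall1: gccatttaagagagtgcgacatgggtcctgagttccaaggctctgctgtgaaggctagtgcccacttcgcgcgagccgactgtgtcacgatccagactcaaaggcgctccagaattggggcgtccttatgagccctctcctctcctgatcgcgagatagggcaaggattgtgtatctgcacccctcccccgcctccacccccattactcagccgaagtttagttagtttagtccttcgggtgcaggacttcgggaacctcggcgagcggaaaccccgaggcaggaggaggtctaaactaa

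Itgam held 3 matches in this window, at −84 on the strand of the gene and at −15 and 33 on the opposite strand, counted from the start of the gene. Trem2 held 1 at −40 and Aif1 held 1 at −7, both on the opposite strand. Mertk (chr2:128698665-128698964, plus) held 0, as did all 3 windows of Sall1. Across the 32841 windows of all genes, 28.3% held at least 1 match on either strand, so a match is common and describes the letters only. The windows also differed in CpG dinucleotides, with 1 in Aif1, 5 in Trem2, 6 in Itgam, 14 in Mertk and 18, 27 and 39 in the 3 windows of Sall1, against a median of 7 over all windows. Tmem119, Tyrobp, Gpr34 and Spi1 were not matched to a window.

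At baseline SIM-A9 cells held Tyrobp, Spi1 and Trem2 at high levels and Aif1, Tmem119 and Mertk at low levels, while Gpr34 was at trace level and no Sall1 was detected. Levels between genes are given in TPM, which divides counts by exon length and scales each library to the same total, and levels of 1 gene between groups in CPM, which only scales the library. Tyrobp stood at 2061 ± 72.0 TPM (SD, n = 3), above 99.53% of the 11154 protein-coding genes tested. Spi1 stood at 325 ± 7.81 TPM (above 96.36%), and Trem2 stood at 102 ± 2.41 TPM (above 85.52%). Itgam stood at 29.4 ± 2.11 TPM, near the middle of expressed genes.

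Aif1, Tmem119 and Mertk lay at 8.79 ± 0.909, 5.38 ± 0.275 and 2.95 ± 0.520 TPM in control (SD, n = 3 each), above 28.75%, 21.2% and 15.36% of the genes tested. Each was still counted in every library, with 60 to 143 reads for Aif1, 51 to 142 for Tmem119 and 50 to 172 for Mertk. The order of the levels depends on the length used. Divided by the longest coding transcript, Trem2 (1088 bases instead of 4946) stood at 464 TPM and Spi1 at 430.4 TPM, so their order was reversed, and with only the exon bases of Itgam that no other gene shares its level was 93.7 TPM.

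Sall1 was not detected in control: the 3 libraries held 0, 0 and 0 reads, which allows up to 3 counts per library, or 0.151 CPM. In all 24 libraries together it was hit by 5 reads, at most 2 in 1 library, and 21 libraries held none. Gpr34 was close to that limit, with 2, 4 and 5 reads in the control libraries (0.110, 0.170 and 0.267 CPM). Over the 24 libraries Gpr34 collected 71 reads, at most 9 in a library, and 4 libraries held none. Among the 9 genes, Sall1 was therefore missing at this depth and Gpr34 was at trace level, while the other 7 were expressed.

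**Figure D1:**
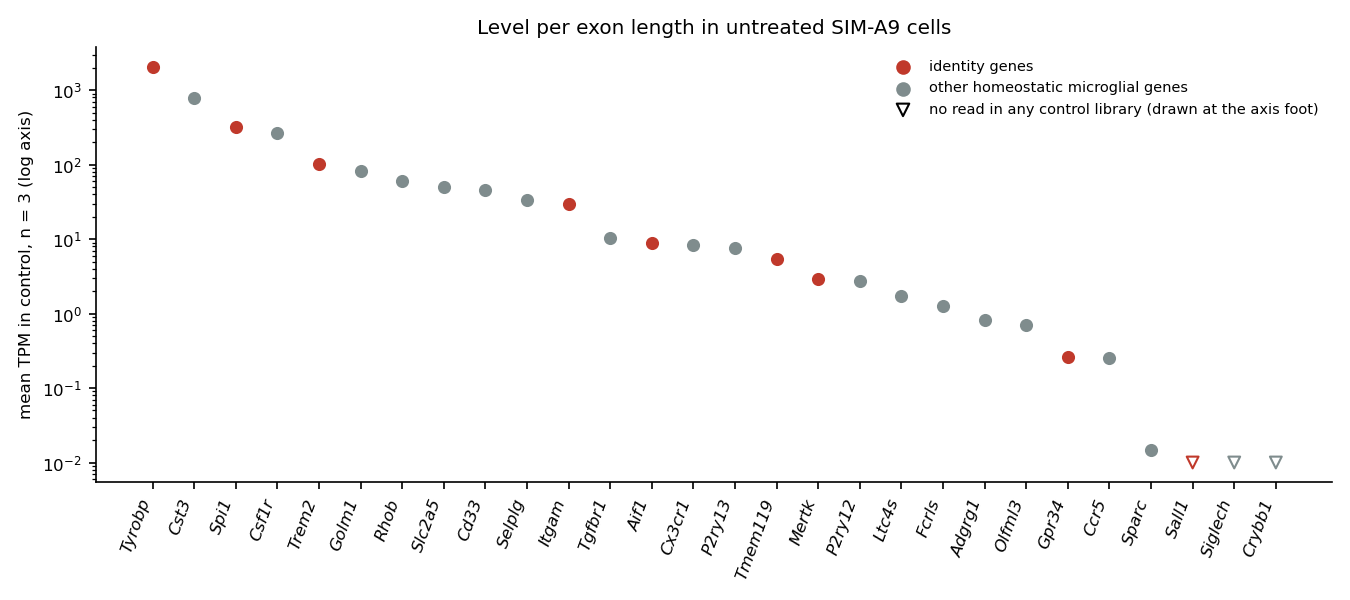
Mean level per exon length in the 3 control libraries, in TPM on a log axis, for the 9 identity genes (red) and other listed homeostatic microglial genes (grey), ordered by level. Tyrobp leads at 2061 TPM, Gpr34 lies near 0.262 TPM, and Sall1, Siglech and Crybb1, with no read in control, are drawn as open triangles at the foot of the axis.

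Levels of 20 other homeostatic genes were as widely spread. Csf1r, the receptor for colony-stimulating factor 1, and Cst3 (cystatin C) had mean levels of 265 and 795 TPM in control (n = 3). The purinergic receptor P2ry12 stood at 2.78 TPM, Fcrls at 1.27 and Olfml3 at 0.706. Siglech and Crybb1 had no read in control, and with Sparc (at most 1 read) they made 3 of 20 genes at or below 3 reads in every control library. All 18 listed genes of the disease-associated microglial state, in which TREM2 signalling is known to take part, exceeded that limit. Per exon length Spp1 led at 2853 TPM, followed by Ctsz at 2549 and Gpnmb at 2454 TPM. None of 11 pan-macrophage markers was at the limit, and Cd68 stood at 1963 TPM.

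For 8 lists of markers of other cells, the number at or below 3 reads in each control library was 4 of 5 for neurons, 4 of 5 for astrocytes, 3 of 3 for B cells, 2 of 4 for T cells, 4 of 5 for neutrophils, 2 of 3 for monocytes, 3 of 4 for fibroblasts and 5 of 7 for oligodendrocytes and their precursors. Ly6c2 (monocytes) had no read. Of 7 markers of border-associated macrophages only 2 were at the limit, Cd163 with no read and Lyve1. Pf4 stood at 426 TPM, and Mrc1, F13a1 and Cbr2 at 2.65, 1.53 and 5.85 TPM. Of 4 endothelial markers 1 was at the limit, Cldn5 at 0. Flt1 stood at 39.4 TPM, and Pecam1 and Cdh5 had at most 5 and 4 reads. Of the 10 microglial markers, 8 exceeded 3 reads in some control library; Siglech and Sall1 did not.

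Differences between groups were small for most identity genes. Over the 7 tested members the highest group mean exceeded the lowest by 1.12-fold for Itgam, 1.14-fold for Trem2, 1.21-fold for Tyrobp, 1.29-fold for Spi1, 1.52-fold for Aif1, 1.57-fold for Tmem119 and 1.78-fold for Mertk. A gene was called when its Benjamini-Hochberg adjusted p, from edgeR's quasi-likelihood test over all 13116 genes, was under 0.05. After LPS, 3 of the 7 were called, 1 higher and 2 lower, where 28.3% of all genes tested were called (13.8% higher, 14.5% lower). (GT)6 SWCNT also gave 3 calls, 1 higher and 2 lower (20.4% of all genes, 9.90% higher and 10.5% lower). COOH SWCNT gave 3, all lower, where 20.0% of all genes were called, 9.39% higher and 10.6% lower.

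With the other probes there was at most 1 call. Di-2-ANEPEQ lowered 1 of the 7 (3.08% of all genes were called, 2.39% lower), and AAV lowered 1 (5.00% called, 3.16% lower). Fura-2 and DiBASC2 gave 0 calls by edgeR, where 0.252% and 5.47% of all genes were called (with DiBASC2 1.82% higher and 3.64% lower). They also gave 0 calls by DESeq2, which called 0.813% and 7.27% of the genes it gave an adjusted p. In edgeR each had 1 member at an unadjusted p under 0.05. The median log2 fold change of the 7 was −0.17 after LPS, −0.02 after (GT)6 SWCNT, −0.12 after COOH SWCNT, −0.05 after Fura-2, 0.01 after DiBASC2, −0.12 after Di-2-ANEPEQ and −0.05 after AAV. The median over all genes tested lay between −0.02 and 0.00 in every one of these comparisons. With 7 genes such a count or median is a description of these genes only.

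**Figure D2:**
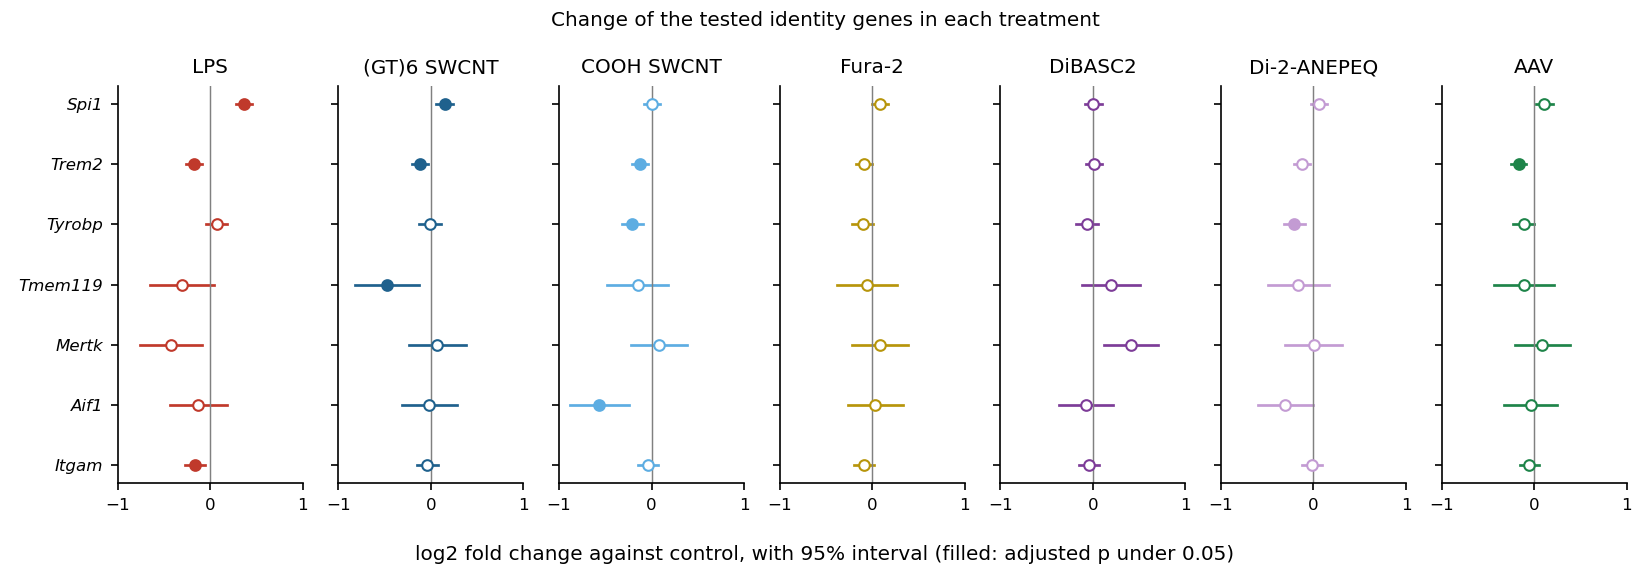
Log2 fold change against control of the 7 tested identity genes in each treatment, with 95% intervals; filled points have an adjusted p under 0.05. Spi1 after LPS (0.36) has the highest filled point, and Aif1 after COOH SWCNT (−0.56) and Tmem119 after (GT)6 SWCNT (−0.47) have the lowest.

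Among the transcription factors, Spi1 rose after LPS and after (GT)6 SWCNT. Its control libraries held 292, 287 and 291 CPM, the LPS libraries 354, 378 and 388, and the (GT)6 SWCNT libraries 334, 335 and 293. All LPS libraries were above all others of the series, while the third (GT)6 SWCNT library was barely above the controls. The log2 fold change of Spi1 after LPS was 0.36 ± 0.04 (SE; 1.29-fold; edgeR adjusted p = 1.06e-08), and Spi1 stayed called in all 14 alternatives tried. After (GT)6 SWCNT it was 0.15 ± 0.04 (adjusted p = 0.0116), and the call was lost without (GT)6 SWCNT replicate 1 (0.0758) or replicate 2 (0.0853).

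COOH SWCNT left Spi1 at 284, 297 and 291 CPM, a range that overlapped control (log2 fold change 0.00 with a 95% interval of −0.08 to 0.09, adjusted p = 0.961). Fura-2 (302 to 312 CPM) and AAV (297 to 326) lay above all control libraries without a call, at log2 fold changes of 0.08 and 0.11 and edgeR adjusted p = 0.493 and 0.122. Of all genes tested, 7.50% and 12.1% were higher in every library in these comparisons. Di-2-ANEPEQ held 307, 301 and 298 CPM (0.06 ± 0.04, adjusted p = 0.533). Control had the lowest group mean of Spi1 of the 8 groups, 290.0 ± 2.36 CPM (SD, n = 3), next to COOH SWCNT and DiBASC2 at 291 ± 6.61 and 291 ± 11.5, which did not differ from it beyond their spread.

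Spi1 also differed between the nanotubes and LPS. Against LPS, Spi1 was lower in (GT)6 SWCNT by a log2 fold change of −0.22 ± 0.04 (edgeR adjusted p = 0.000171) and in COOH SWCNT by −0.36 ± 0.04 (1.28e-08). Between the nanotubes it was higher with (GT)6 by 0.14 ± 0.04 (0.0144), although 1 (GT)6 SWCNT library at 293 CPM fell within the COOH SWCNT range. Without (GT)6 SWCNT replicate 1 or 2, or COOH SWCNT replicate 1, that last difference missed the threshold (adjusted p = 0.0968, 0.108 and 0.0654).

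Sall1 could not be compared: single libraries of (GT)6 SWCNT, COOH SWCNT and AAV held 1, 2 and 2 reads, and every other library held 0. Its paralog Sall3 was present in control at 7.84 ± 0.913 CPM (SD, n = 3). Of the 21 myeloid and microglial transcription factors listed, Sall1, Gfi1 and Ets1 were at or below 3 reads in control, and 18 were tested, Spi1 among them. After LPS 4 of the 18 rose and 9 fell, where 13.8% of all genes rose and 14.5% fell, and the median log2 fold change was −0.24 against −0.01 over all genes. Bhlhe41, a repressor expressed in tissue macrophages, fell by 2.18 ± 0.06 on the log2 scale, while Cebpb, a factor of inflammatory transcription, rose by 1.10 ± 0.08 (log2 fold change ± SE).

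After (GT)6 SWCNT 5 rose and 8 fell (9.90% and 10.5% of all genes; median −0.21 against −0.02), with Runx1 at 0.51 ± 0.05, Irf8 at 0.26 ± 0.05, Maf at −0.78 ± 0.10 and Cebpa at −0.75 ± 0.14. After COOH SWCNT 4 rose and 5 fell (9.39% and 10.6% of all genes; median 0.02 against 0.00), among them Runx1 (0.31 ± 0.05). DiBASC2 raised 3 and lowered 0 of the 18 (1.82% and 3.64% of all genes). Maf rose by 0.44 ± 0.09 with this dye, the opposite sign to LPS. AAV raised 1, Bhlhe41 (0.19 ± 0.05), where 5.00% of all genes were called, and Fura-2 and Di-2-ANEPEQ gave 0 calls.

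**Figure D3:**
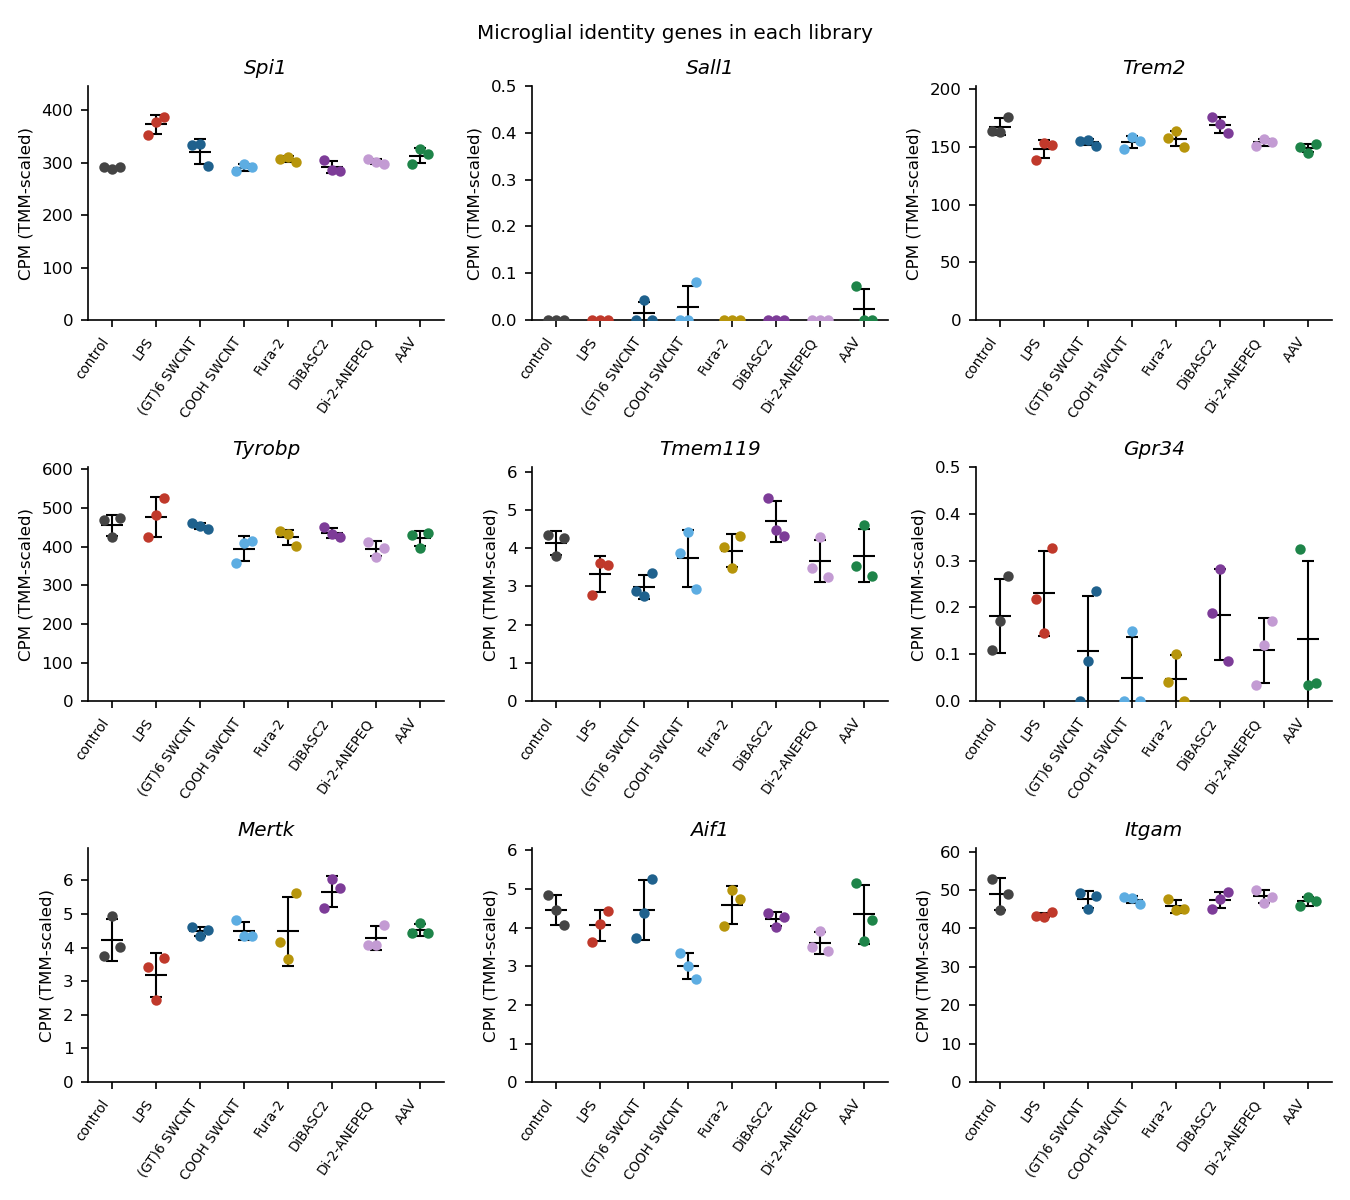
Level of each of the 9 identity genes in every library, in CPM scaled with TMM factors, by group; horizontal bars give the mean and SD of 3 libraries, and bars reaching below 0 end at the axis. Spi1 in LPS (354 to 388 CPM) lies above all other libraries, Trem2 in control and DiBASC2 lies above LPS and AAV, and Sall1 is at 0 in 21 of 24 libraries.

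Trem2 fell in 4 of the 7 treatments, by small amounts. Its control libraries held 164, 163 and 176 CPM. The LPS libraries held 139, 154 and 151 CPM, and the AAV libraries 149.8, 145 and 152. In both groups every library was below every control library, as were 20.3% of all genes tested with LPS and 12.5% with AAV. The log2 fold change of Trem2 was −0.18 ± 0.04 after LPS (0.884-fold; edgeR adjusted p = 0.00141) and −0.17 ± 0.04 after AAV (0.890-fold; 0.0173).

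The nanotubes gave smaller values for Trem2. (GT)6 SWCNT libraries held 155, 156 and 151 CPM and COOH SWCNT libraries 148, 158 and 155, again all below control, as were 18.7% and 17.8% of all genes. Log2 fold changes were −0.12 ± 0.04 in each, with adjusted p = 0.0437 and 0.04. Di-2-ANEPEQ had nearly the same value (−0.12 ± 0.04) with adjusted p = 0.111 and all libraries below control (12.3% of all genes), and Fura-2, at −0.09, overlapped control (adjusted p = 0.430). DiBASC2 was at the control level (169 ± 7.17 against 167 ± 7.56 CPM, log2 fold change 0.01 with a 95% interval of −0.07 to 0.10).

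Control replicate 3 held the most Trem2 of the control libraries. Without it the log2 fold change was −0.13 after LPS (adjusted p = 0.0343), −0.13 after AAV (0.155), −0.07 after (GT)6 SWCNT (0.414) and −0.07 after COOH SWCNT (0.328), so the call remained after LPS and was lost in the other 3. The call after AAV was lost also without AAV replicate 2 (0.115). The (GT)6 SWCNT call was lost without any 1 of its 6 libraries, and the COOH SWCNT call also without control replicate 1, COOH SWCNT replicate 1 or COOH SWCNT replicate 3. Of 14 alternatives, 4 kept the (GT)6 SWCNT call and 6 kept the COOH SWCNT call. The groups in order of Trem2 were DiBASC2, control, Fura-2, (GT)6 SWCNT, COOH SWCNT, Di-2-ANEPEQ, AAV and LPS, and the middle 3 of these means, 154.0, 153.9 and 153.8 CPM, could not be separated.

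Tyrobp, the adaptor of TREM2, fell in 2 treatments, COOH SWCNT, where Trem2 also fell, and Di-2-ANEPEQ. Control libraries held 470.0, 424 and 473 CPM. COOH SWCNT libraries held 358, 410.3 and 416 CPM and Di-2-ANEPEQ libraries 413, 374 and 397. Both groups lay below all controls, the second control library being closest. Of all genes tested, 17.8% and 12.3% were lower in every library in these comparisons. Tyrobp fell by 0.21 ± 0.06 on the log2 scale in each (0.866-fold with edgeR adjusted p = 0.00783, and 0.867-fold with 0.0367).

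LPS libraries spread from 425 to 527 CPM of Tyrobp and overlapped control (log2 fold change 0.07 ± 0.06, adjusted p = 0.422), although leaving out LPS replicate 1 gave 0.16 with adjusted p = 0.0321. Directly compared, COOH SWCNT was lower than LPS by a log2 fold change of −0.28 ± 0.06 (adjusted p = 0.000175), and (GT)6 SWCNT was higher than COOH SWCNT by 0.20 ± 0.06 (0.0104). The call of Tyrobp after COOH SWCNT was lost without COOH SWCNT replicate 1 (−0.14, 0.134), control replicate 1 (0.0683) or control replicate 3 (0.0679). That after Di-2-ANEPEQ was lost in DESeq2 (0.0622) and when replicate 1 or 3 of control, or 2 or 3 of the dye, was left out (0.105 to 0.223). The difference between the nanotubes was lost without COOH SWCNT replicate 1 (0.14, adjusted p = 0.125).

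All 15 listed genes of TREM2-TYROBP signalling, including the 2 members, were tested. After LPS 2 rose and 3 fell, 5 of 15 called where 28.3% of all genes were: Lcp2 (SLP-76), an adaptor downstream of SYK, rose by 0.86 ± 0.04, and Adam17, a sheddase that cleaves TREM2, by 0.41 ± 0.04, while Pik3r1, a PI3-kinase regulatory subunit, fell by 0.68 ± 0.06 and Inpp5d (SHIP1), a phosphatase opposing PI3-kinase, by 0.29 ± 0.05, the fifth being Trem2. (GT)6 SWCNT raised 3 and lowered 4 (20.4% of all genes called), with Lcp2 at 0.75 ± 0.04 and Pik3r1 at −0.46 ± 0.06. COOH SWCNT raised 2 and lowered 3 (20.0% of all genes called), with Lcp2 at 0.48 ± 0.04 and Pik3r1 at −0.27 ± 0.06. DiBASC2 lowered 1, Lcp2 (−0.22 ± 0.04), where 5.47% of all genes were called. Di-2-ANEPEQ and AAV lowered 2 each, the member and Lat2, an adaptor of SYK-coupled receptors (−0.17 ± 0.04 and −0.18 ± 0.04). Of all genes, 3.08% were called with Di-2-ANEPEQ and 5.00% with AAV. Fura-2 gave 0 calls. The median of the list lay between −0.05 and 0.05 in every treatment.

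Of the 18 disease-associated genes, LPS raised 2 and lowered 1, where 28.3% of all genes were called. (GT)6 SWCNT raised 6 and lowered 0, where 9.90% of all genes rose and 10.5% fell, and COOH SWCNT raised 4 and lowered 3 (9.39% and 10.6% of all genes). Csf1, the cytokine ligand of CSF1R, was the highest in each, at 2.02 ± 0.04, 1.17 ± 0.04 and 0.71 ± 0.04, followed by the inhibitory receptor Lilrb4a at 1.60 ± 0.10, 0.59 ± 0.10 and 0.56 ± 0.10. DiBASC2 lowered 2, Csf1 (−0.40 ± 0.04) and Spp1 (osteopontin, −0.22 ± 0.06), where 5.47% of all genes were called. AAV lowered 1, Lilrb4a (−0.50 ± 0.11), where 5.00% were called, and the other dyes gave 0 calls.

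Tmem119, the most widely used surface marker of homeostatic microglia, was called in 1 treatment. Control libraries held 4.34, 3.79 and 4.27 CPM (79 to 89 reads), and (GT)6 SWCNT libraries held 2.87, 2.75 and 3.34 (57 to 70 reads). All 3 treated libraries lay below all controls, as did those of 18.7% of all genes tested. Tmem119 fell by 0.47 ± 0.17 on the log2 scale (0.720-fold; edgeR adjusted p = 0.0466). The value is near the threshold: it was called in 5 of 14 alternatives, was lost without any library other than (GT)6 SWCNT replicate 3 (0.0618 to 0.174), and was lost with DESeq2 (0.0581).

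After LPS Tmem119 held 2.77, 3.61 and 3.55 CPM, also below all controls, as were 20.3% of all genes, with a log2 fold change of −0.31 ± 0.17 (adjusted p = 0.198). The difference between (GT)6 SWCNT and LPS was −0.17 with a 95% interval of −0.53 to 0.19 (adjusted p = 0.578), so these data do not separate them. At 51 to 142 reads per library counting error is a large part of the spread, and each remaining treatment overlapped control, with DiBASC2 the highest at 4.32 to 5.32 CPM (0.20 ± 0.16, adjusted p = 0.542).

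Gpr34, a lysophosphatidylserine receptor, was not tested. Its highest library was an AAV library with 9 reads (0.325 CPM), whose other 2 replicates held 1 read each, and LPS libraries held 4, 3 and 7. No order of the groups can be read at this depth. Of the other homeostatic list 17 of 20 were tested. LPS raised 1 and lowered 4, and COOH SWCNT raised 2 and lowered 2, shares close to the 28.3% and 20.0% of all genes called. (GT)6 SWCNT raised 2 and lowered 5 (20.4% of all genes called), DiBASC2 raised 1 and lowered 1 (5.47%), and Fura-2, Di-2-ANEPEQ and AAV gave 0 calls.

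Rhob, a small GTPase that is also an early response gene, was the highest of that list, at 1.09 ± 0.05, 1.34 ± 0.05 and 0.72 ± 0.05 after LPS, (GT)6 SWCNT and COOH SWCNT, and it was lower with DiBASC2 (−0.23 ± 0.06). P2ry13, a purinergic receptor, fell after LPS (−0.44 ± 0.13) and (GT)6 SWCNT (−0.46 ± 0.13). Tgfbr1, the receptor for TGF-beta on which the homeostatic state depends, fell after (GT)6 SWCNT (−0.39 ± 0.07), and Golm1 after LPS (−0.27 ± 0.04). Cx3cr1, the fractalkine receptor, rose after COOH SWCNT (0.28 ± 0.09). The median of the list was −0.07 after LPS, −0.01 after (GT)6 SWCNT and 0.04 after COOH SWCNT.

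Mertk, the engulfment receptor, was not called in any treatment against control, but it spread the most between groups. Control libraries held 3.74, 4.94 and 4.01 CPM, LPS libraries 3.42, 2.44 and 3.69, and DiBASC2 libraries 5.17, 6.05 and 5.78. LPS libraries were all below control, as were 20.3% of all genes tested, and DiBASC2 libraries all above, as were 10.6%. The log2 fold change was −0.42 ± 0.16 after LPS (edgeR adjusted p = 0.0514) and 0.41 ± 0.14 after DiBASC2 (0.0928). Of 14 alternatives, 4 brought Mertk past the threshold after LPS and 0 did after DiBASC2.

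Against LPS, Mertk was higher in (GT)6 SWCNT by a log2 fold change of 0.49 ± 0.16 (edgeR adjusted p = 0.0237) and in COOH SWCNT by 0.50 ± 0.16 (0.0111), with (GT)6 SWCNT at 4.34 to 4.60 CPM and COOH SWCNT at 4.34 to 4.82. No library of either overlapped LPS, and 15.4% and 21.9% of all genes tested were likewise higher in every library. Without LPS replicate 2, the lowest, these became 0.33 (0.195) and 0.34 (0.125), and without the first replicate of the nanotube group the adjusted p was 0.0731 and 0.0557. Counting those 2 comparisons whole, (GT)6 SWCNT against LPS gave 2 calls of 7 members (Mertk higher, Spi1 lower; 21.6% of all genes called) and COOH SWCNT against LPS gave 4 (Mertk higher; Spi1, Tyrobp and Aif1 lower; 37.8%). Between the nanotubes Mertk differed by −0.01 with a 95% interval of −0.31 to 0.29.

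Of the 15 genes for TAM receptors (TYRO3, AXL, MERTK) and phosphatidylserine recognition, Tyro3, the ligand gene Gas6, Timd4 and Adgrb1 were at or below 3 reads in control, and 11 were tested. Axl stood at 32.6 TPM against 2.95 for Mertk, so it was the higher TAM receptor transcript per exon length. LPS raised 1, the integrin Itgav (0.22 ± 0.05), and lowered 1, Cd300lf (−0.28 ± 0.06), 2 of 11 called where 28.3% of all genes were. (GT)6 SWCNT raised Itgav (0.17 ± 0.05) and lowered the scavenger receptor Stab1 (−0.22 ± 0.06), where 20.4% of all genes were called. COOH SWCNT raised 2, Itgav (0.14 ± 0.05) and Itgb5 (0.18 ± 0.05), where 20.0% were called. DiBASC2 lowered 1, Itgav (−0.19 ± 0.05), where 5.47% were called. Fura-2, Di-2-ANEPEQ and AAV gave 0 calls.

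Aif1 fell with COOH SWCNT. Control libraries held 4.84, 4.47 and 4.06 CPM (76 to 105 reads) and COOH SWCNT libraries 3.34, 3.01 and 2.68 (60 to 88 reads). All 3 lay below the lowest control library, as did those of 17.8% of all genes tested. The log2 fold change was −0.56 ± 0.16 (0.677-fold; edgeR adjusted p = 0.00783), lost without control replicate 1 (0.0535) or COOH SWCNT replicate 3 (0.0539).

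Aif1 was also lower in COOH SWCNT than in LPS by −0.44 ± 0.16 (adjusted p = 0.0268), and higher in (GT)6 SWCNT than in COOH SWCNT by 0.55 ± 0.15 (0.00896). The first was lost without LPS replicate 2 (0.0637), LPS replicate 3 (0.110) or COOH SWCNT replicate 3 (0.122), the second without (GT)6 SWCNT replicate 3 (0.0608) or COOH SWCNT replicate 3 (0.0502). Over 14 alternatives the first was called in 10 and the second in 11. In the comparison of the nanotubes 3 of 7 members were called, Tyrobp, Spi1 and Aif1, all higher with (GT)6 (21.4% of all genes called, 11.9% higher). Di-2-ANEPEQ held Aif1 at 3.41 to 3.93 CPM, below all controls like 12.3% of all genes, without a call (−0.30 ± 0.15, adjusted p = 0.298).

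Itgam fell after LPS. Control libraries held 53.0, 44.8 and 49.0 CPM, and LPS libraries 43.31, 42.97 and 44.13. The lowest control library was just above the highest LPS library, and 20.3% of all genes tested were likewise lower in every library. The log2 fold change was −0.17 ± 0.05 (0.892-fold; edgeR adjusted p = 0.0203). It became −0.09 without control replicate 1 (0.256), and the call was also lost without control replicate 3 (0.0658), LPS replicate 1 (0.0610) or LPS replicate 2 (0.0810). A fit of only the 2 groups lost it too, and it was called in 8 of 14 alternatives. In the other treatments Itgam had log2 fold changes of −0.09 to −0.01 without a call.

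Of 9 beta-2 integrin genes and partners, Itgad and Itgb2l had no read in control, and 7 were tested. Itgb2, the partner chain of ITGAM, stood at 171 ± 5.73 CPM in control. LPS raised 2, Icam1, the endothelial and leukocyte ligand of these integrins (1.96 ± 0.04), and Itgal (0.24 ± 0.06), and lowered Itgam. With LPS 28.3% of all genes were called. (GT)6 SWCNT raised 3, among them Itgax (0.32 ± 0.06) and Icam1 (0.32 ± 0.04), and COOH SWCNT raised 5, among them Icam1 (0.32 ± 0.04) and Tln1 (talin; 0.23 ± 0.05), both lowering 0, where 9.90% and 9.39% of all genes rose. DiBASC2 lowered 1, Icam1 (−0.28 ± 0.04), where 5.47% of all genes were called, and the other probes gave 0 calls.

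Transcript length moved with some of these differences. Over all genes tested whose longest coding transcript is under 1000 bases (1387 genes), the median log2 fold change after COOH SWCNT was −0.16, with 19.8% called lower and 1.59% higher. Over 4000 bases (3904 genes) it was 0.05, with 4.94% called lower and 16.3% higher. The medians for short and long transcripts were −0.10 and 0.04 after Di-2-ANEPEQ and −0.11 and 0.05 after AAV, but 0.06 and −0.01 after LPS and −0.01 and −0.02 after (GT)6 SWCNT. The longest coding transcripts of Tyrobp and Aif1 have 597 and 875 bases, and that of Trem2 has 1088. These 3 members with the shortest transcripts are the ones that fell with COOH SWCNT; the part of length in that was not tested beyond the next alternative.

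**Figure D4:**
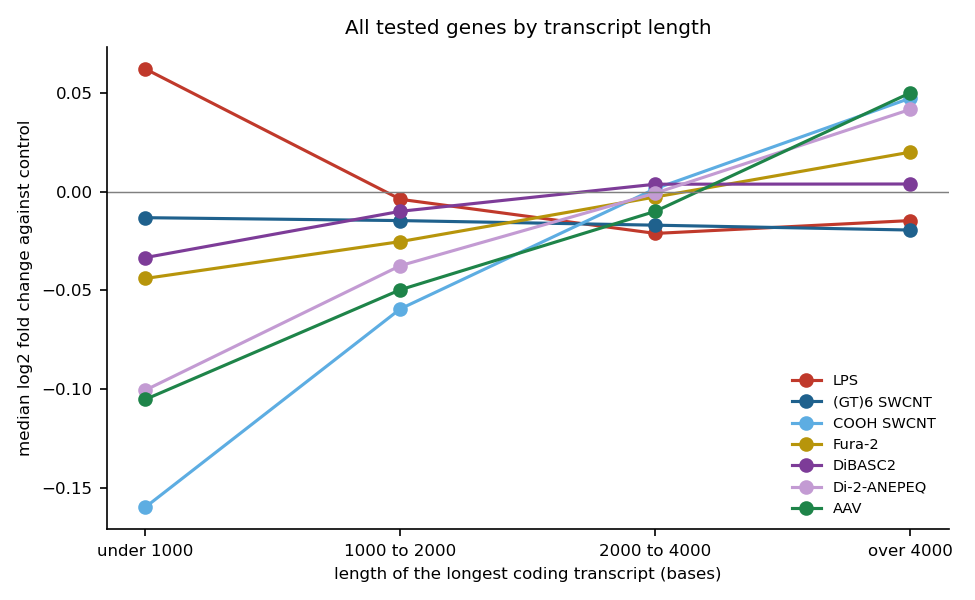
Median log2 fold change against control of all tested genes, by length of the longest coding transcript in 4 bins, 1 line per treatment. COOH SWCNT runs from −0.16 under 1000 bases to 0.05 over 4000, Di-2-ANEPEQ and AAV run the same way with smaller values, and LPS and (GT)6 SWCNT do not.

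With the trend of each library over length and GC content removed, an alternative chosen after the data were seen, the log2 fold change after COOH SWCNT was −0.08 for Tyrobp (adjusted p = 0.168), −0.06 for Trem2 (0.23) and −0.44 for Aif1 (0.0448). After Di-2-ANEPEQ it was −0.15 for Tyrobp (0.0223). After AAV it was −0.13 for Trem2 (0.0157), and Spi1 was then called at 0.11 (0.0371). After LPS, Itgam had −0.11 (0.124). Between the nanotubes only Spi1 stayed called of the 3. Among libraries the trend explained 8.15% of the variance in COOH SWCNT replicate 1 and at most 4.75% in any other; without that library the log2 fold change after COOH SWCNT was −0.14 for Tyrobp (0.134), −0.09 for Trem2 (0.226) and −0.65 for Aif1 (0.0108). The calls of Tyrobp and Trem2 were lost also without other libraries, named above with each gene.

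For each member called against control, the 2 genes of most similar pattern were found by Pearson's r over the 8 group means of log2 CPM, among 9273 protein-coding genes; these are descriptions of 8 points with shared libraries. Trem2 was most like Zfp692 (0.97) and Ttc39a (0.95), and Spi1 was most like H3f3b and Filip1l (0.98 each). Tyrobp was most like Ppib and Rps27 (0.99 each), Aif1 most like Gtf2h5 (0.97) and S100a13 (0.96), Itgam most like Prkag2 and Sgk1 (0.93 each), and Tmem119 most like Cep78 (0.99) and Fam131a (0.98). Among the members themselves the extremes of r were −0.86 for Spi1 with Itgam and 0.75 for Tmem119 with Trem2, and Trem2 with its adaptor Tyrobp had 0.10.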

How the data were processed

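The authors deposited 1 table of raw read counts per gene for the 24 libraries, with 54838 versioned Ensembl identifiers; its values are whole numbers with a different total in each library. Per the submitters' processing notes, STAR 2.5.4b and the build GRCm38.p6 were used; the counting tool, strand setting and annotation are not given in the sources used here. Columns were matched to samples by name; 3 columns spelled DiSBAC2 were matched to the samples titled DiBASC2 by the rest of the name, which is the same in their description field. GENCODE M21 (GRCm38) supplied symbols, positions and lengths, and 54809 identifiers matched, 53947 of them with their version.

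Totals of 17364272 to 29259221 counts limit precision most for Tmem119, Mertk and Aif1. In R 4.3.3, edgeR 4.0.16 kept 13116 genes (filterByExpr), scaled libraries with TMM factors, and fitted 1 quasi-likelihood model with a mean per group (16 residual degrees of freedom). Two-sided contrasts compared each treatment with control, each SWCNT group with LPS, and the SWCNT groups with each other. Benjamini-Hochberg adjustment ran over all genes of a contrast, and a gene was called under 0.05. SE is the log2 fold change divided by the square root of F. CPM use TMM-scaled totals, and TPM use exon-union lengths of GENCODE M21. A gene with at most 3 counts in each library of a group was at the limit of detection. The test was also run on simulated counts that gave every gene the same spread. That simulation had no library trend over length, unlike these data, so it does not vouch for the calls above.

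The members and gene lists were chosen with earlier results of these data known, so none is independent support. All 9 members are named; of each list, at most the 2 highest and 2 lowest called genes per comparison with a mean of at least 5 CPM. Alternatives were DESeq2 1.42.0 (test and size factors), upper-quartile factors, other count filters, a block for the replicate number, fits restricted to the groups compared, and leaving out each library; the length and GC trend and 2 other gene lengths were added after the data were seen.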

Additional observations from a re-analysis of the deposited data

How the results depend on the processing

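No called member changed direction in any alternative. The (GT)6 SWCNT against control count of 3 called members became 1 (Spi1) with DESeq2 size factors, no filter on low counts or the DESeq2 test, and 0 to 2 with a library left out. Of all genes, 20.1%, 9.05% and 21.3% were called in those settings, and 14.9% to 19.3% with a library left out. Shares for the DESeq2 test are of genes given an adjusted p. COOH SWCNT against control went from 3 to 1 (Aif1) with the length and GC trend removed (18.9% of all genes called) and to 0 to 3 with a library left out (13.4% to 18.5%). Di-2-ANEPEQ against control went from 1 to 0 in the DESeq2 test (5.91% of all genes called), to 2 in a fit of only the 2 groups (6.66%), and to 0 to 1 with a library left out (0.897% to 3.13%). AAV against control went from 1 to 2 with the trend removed (5.86% of all genes called) and to 0 to 1 with a library left out (1.18% to 5.78%). LPS against control ranged from 2 to 4, (GT)6 SWCNT against LPS from 1 to 3, COOH SWCNT against LPS from 2 to 4 (6 with upper-quartile factors, which added Trem2 and Itgam, and 5 with a mean of at least 50 counts), and (GT)6 SWCNT against COOH SWCNT from 1 to 3 with a library left out, the last also being 1 with the trend removed. Apart from the effect of fewer libraries, the cause was not tested. With a library left out, 23.2% to 26.8% of all genes were called after LPS. The shares were 16.4% to 20.3% for (GT)6 SWCNT against LPS, 30.9% to 35.9% for COOH SWCNT against LPS, and 14.5% to 19.1% between the nanotubes. COOH SWCNT against LPS had 40.3% with upper-quartile factors and 46.6% with a mean of at least 50 counts. Between the nanotubes 18.1% were called with the trend removed. Fura-2 and DiBASC2 stayed at 0, where 0% to 0.813% and 2.49% to 7.39% of all genes were called.

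With the replicate number as a block, the (GT)6 SWCNT count of 3 became 1, as Tmem119 (edgeR adjusted p = 0.0515) and Trem2 (0.0563) missed the threshold, and Trem2 after COOH SWCNT had 0.0515. Of all genes, 20.1% were called after (GT)6 SWCNT and 19.4% after COOH SWCNT with this block. Replicate numbers did not pair the libraries: deviations of the 84 same-numbered pairs from their group means correlated at −0.104 to 0.0696, and 5 of 24 libraries were closest to their own number.

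Levels per length in control became 464.2 (Trem2), 2303 (Tyrobp), 430.4 (Spi1), 15.38 (Aif1) and 31.51 TPM (Itgam) with the longest coding transcript, and 93.72 TPM for Itgam with unshared exons. Of the single-gene values, called or not, 371 of the leave-one-out fits kept their side of the threshold, 45 lost a call and 4 gained one. Of the other fits 526 kept their side, 19 lost a call and 9 gained one. Only a called value can lose its call, and the fits that kept their side include uncalled values that stayed uncalled. These totals therefore do not measure how firmly the calls stood, which is given above with each gene. At the depth of these libraries Sall1 and Gpr34 cannot be compared between groups.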
